A study of Mus musculus with 4 samples.

Results

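Glycolysis splits glucose to pyruvate, gluconeogenesis runs the same path backwards through a few enzymes of its own, and the pentose phosphate pathway branches off to make NADPH and ribose. The genes examined here are 37 listed genes of these pathways in mouse embryonic stem (ES) cells, taken as every probe set annotated to exactly 1 of the listed symbols. Of the 37 genes, 34 had such a probe set. All values are array signals scaled to a common level, and signals under 36.6, the 40th percentile over named probe sets, were raised to that floor. Of the 34 genes, 33 were above it on at least 1 array. The list matched 74 of 45101 probe sets, 4 of them control probe sets of the array maker for pyruvate carboxylase. Where a gene had several probe sets, the brightest stood for it, which gave 34 genes of 18193 named on the array. Gpi1, Eno1 and G6pdx were not analysed here, and Pck1, the cytosolic enzyme that opens gluconeogenesis, was at the floor on all 4 arrays.

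Total RNA was hybridised to 4 Affymetrix mouse arrays, 1 for each of 4 groups. These were wild-type ES cells serving as the control of a constitutive Ring1B KO, the ES cells with the constitutive Ring1B KO, wild-type ES cells serving as the control of the Ring1A/B double KO, and ES cells labelled conditional Ring1A/B-dKO, day 4. The double KO was made conditional, with the drug OHT, because cells lacking both proteins constitutively could not be kept in culture, per the series' design text. The labels do not say whether the control of the double KO had OHT, from which lines or clones the cells came, or whether they grew on feeder cells. Ring1A (gene Ring1) and Ring1B (gene Rnf2) are the RING-finger proteins of Polycomb repressive complex 1, which holds developmental genes silent. With 1 array a group no difference below has a replicate check, no p-value was computed, and a difference is the log2 signal of one array minus that of another.

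ES cells of the mouse use glycolysis, and many steps of the pathway are shared out among isoenzymes with their own tissues. Ldha, Pkm, Pgam1 and Aldoa are the broadly expressed forms, whereas Fbp2, Pgam2 and Eno3 are known as muscle forms, Aldoc and Eno2 as brain forms, and Fbp1 as the form of liver and kidney. Pyruvate dehydrogenase kinases, of which Pdk1 is a known target of hypoxia-inducible factor (HIF), switch off the entry of pyruvate into the mitochondrial cycle.

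The arrays' labels could not be checked by the targeted genes. At the brightest of 5 Rnf2 probe sets the scaled signals were 2579.7, 2775, 2182 and 1986 on the Ring1B control, Ring1B KO, double KO control and double KO arrays, and at the single Ring1 probe set they were 146, 164, 44.7 and 55.6. Neither probe set was 2-fold lower on an array labelled KO than on its control, and whether these probe sets lie in the deleted parts is not known here. All 9 ES cell markers listed, such as Pou5f1, were above the floor on every array. The number of genes above the floor ranged from 11187 to 11871. As deposited, the Ring1B pair had a 2%-trimmed mean signal of 500.0 and the other pair of 160 and 147, so all arrays were scaled to a common one before any comparison, and a difference between pairs depends on that scaling.

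Sequences before the annotated starts of 5 members are shown first, because 4 of these genes (Fbp2, Fbp1, Pdk1 and Aldoc) were at least 2-fold apart in opposite directions in the KO comparisons, and Ldha held the most matches to a HIF core motif of all members. Each is the 200 bases directly upstream of the start, on the gene's own strand from 5′ to 3′, from RefSeq on GRCm38.p6. Capitals mark ACGTG and GCGTG, the core letters of sites that HIF can bind, read on both strands.
Fbp2 (chr13:62858401-62858600, minus strand): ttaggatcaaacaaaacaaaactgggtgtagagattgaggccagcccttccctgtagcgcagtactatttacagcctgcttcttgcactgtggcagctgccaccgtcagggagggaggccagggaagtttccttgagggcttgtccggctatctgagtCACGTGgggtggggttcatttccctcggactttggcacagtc
Fbp1 (chr13:62888283-62888482, minus strand): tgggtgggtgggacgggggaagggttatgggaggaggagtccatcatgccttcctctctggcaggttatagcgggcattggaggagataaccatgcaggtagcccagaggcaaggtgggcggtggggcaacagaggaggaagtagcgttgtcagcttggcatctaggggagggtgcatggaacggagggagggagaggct
Pdk1 (chr2:71873024-71873223, plus strand): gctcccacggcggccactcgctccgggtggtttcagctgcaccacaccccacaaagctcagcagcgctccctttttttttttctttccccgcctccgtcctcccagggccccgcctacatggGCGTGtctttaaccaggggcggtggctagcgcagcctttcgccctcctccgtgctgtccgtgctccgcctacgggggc
Aldoc (chr11:78322873-78323072, plus strand): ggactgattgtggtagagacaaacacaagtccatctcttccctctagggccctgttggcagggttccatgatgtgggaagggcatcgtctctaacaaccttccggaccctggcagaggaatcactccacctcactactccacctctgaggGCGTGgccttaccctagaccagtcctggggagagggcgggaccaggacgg
Ldha (chr7:46845604-46845803, plus strand): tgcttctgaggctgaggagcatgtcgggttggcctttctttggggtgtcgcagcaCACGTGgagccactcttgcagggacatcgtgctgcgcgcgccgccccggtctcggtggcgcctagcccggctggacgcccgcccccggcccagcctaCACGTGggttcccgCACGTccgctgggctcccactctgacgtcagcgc
Fbp1 has no capitals, since neither motif is in the stretch shown.

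Promoter windows of 300 bases (250 before the start and 50 after it) were held by RefSeq for 36 of the 37 listed genes, and the first window listed for each gene was used. ACGTG or GCGTG was found on either strand in 27 of the 36 windows (75%), against 43.8% of the windows of 27025 genes. CACGTG, which holds ACGTG on both strands and so counts as 2 matches of it, was in 6 member windows (16.7%) and in 7.24% of all. The Ldha window had 7 matches of the HIF core and the Slc16a1 window 5. The member windows were also richer in C and G, with a median GC share of 60.7% against 52.7% and a median of 20 CpG dinucleotides against 7, and the part of base composition in the motif counts was not tested. Fbp1 and Fbp2 had 6 CpGs each, Pgam2 and Hk1 1 each, Aldoa 0, Eno3 3, Pfkm 4 and Aldoc 8. Pdk1 had 25, Ldha 30 and Slc16a1 42. A relation between CpG count and the direction of a difference was not tested. A match describes the letters and is not evidence of binding.

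**Figure D1:**
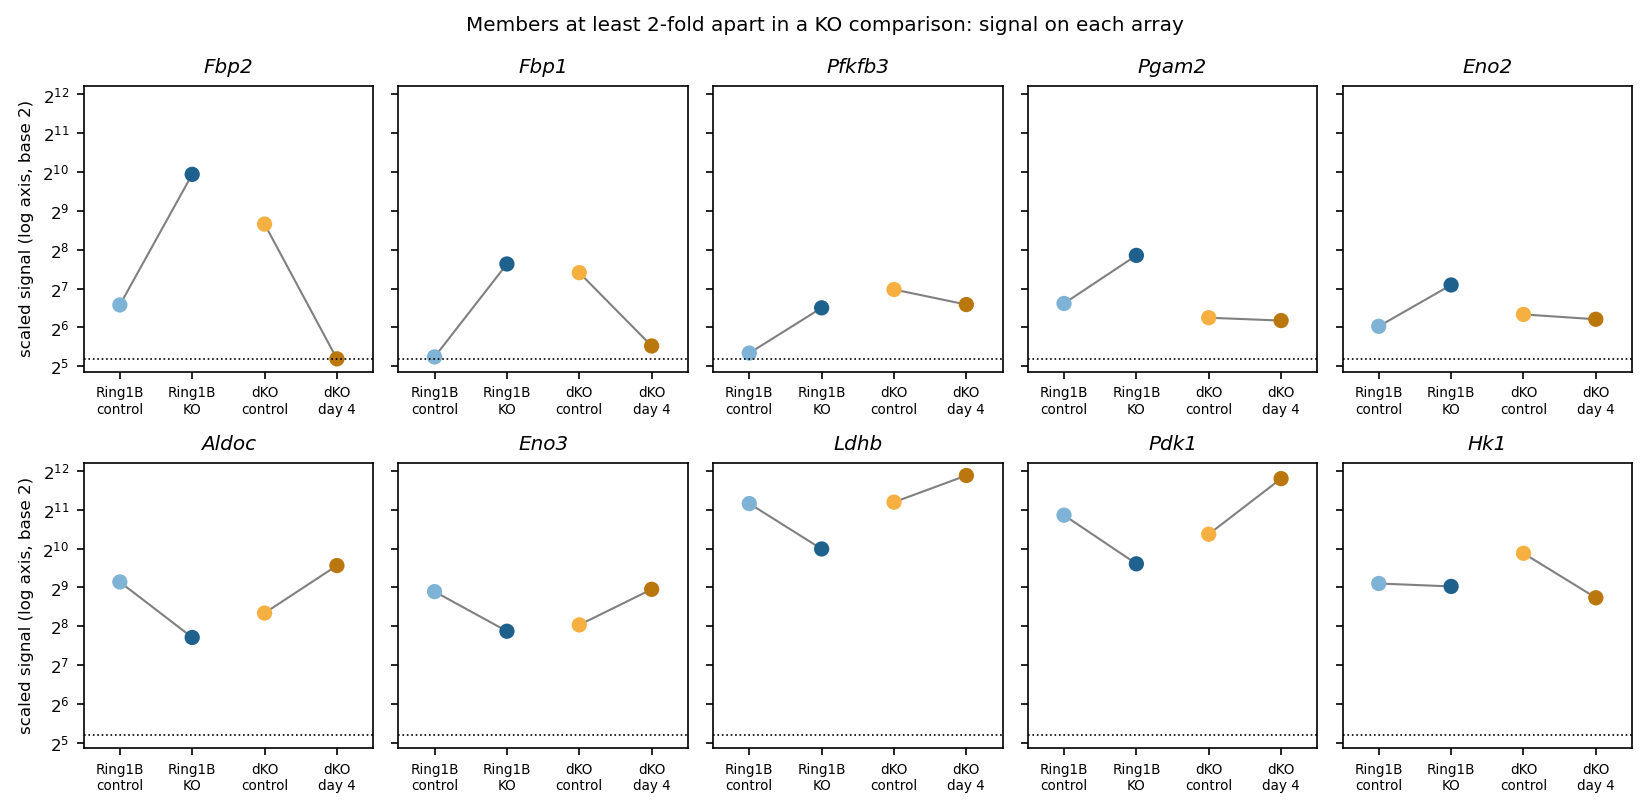
Scaled signal (vertical axis, log scale with base 2) on each of the 4 arrays for the 10 members at least 2-fold apart in a KO comparison. Each point is 1 array, grey lines join an array labelled KO to its own control, and the dotted line is the floor of 36.6. Fbp1 and Fbp2 are high on the Ring1B KO and double KO control arrays, and Aldoc and Pdk1, each at its brightest probe set, are lowest on the Ring1B KO array and highest on the double KO array.

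In the array labelled Ring1B KO, 5 members were at least 2-fold higher than on its control and 4 at least 2-fold lower, of 33 measured. Over all 12343 genes measured, 3.54% were higher by 2-fold or more and 2.61% lower by as much. The 5 higher genes were Fbp2, Fbp1, Pgam2, Pfkfb3 and Eno2, and the 4 lower ones Aldoc, Pdk1, Ldhb and Eno3. Except for Pdk1 and Ldhb, these are dim genes, with a mean signal under 788. At any size, 11 of the 33 members were higher, against 48.1% of all genes, and the member median was −0.18, against −0.02 over all genes. Against the control of the other pair, 2 members of the Ring1B KO were 2-fold higher (7.98% of all genes) and 2 lower (11.1%).

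In the array labelled double KO, 2 members (Pdk1 and Aldoc) were at least 2-fold higher than on its control and 3 (Fbp2, Fbp1 and Hk1) at least 2-fold lower. Over 12353 genes, 3.02% were higher by 2-fold or more and 9.99% lower by as much. More widely, 23 of the 33 members had a higher signal, at any size, against 45.3% of all genes. The member median was 0.25 and that of all genes −0.05. Against the Ring1B control, 2 members were 2-fold higher (7.82% of all genes) and 2 lower (9.87%), and 25 of 33 were higher at any size (51.2%). The direction was opposite to that of the Ring1B comparison in 26 of 33 members, against 62.0% of 11615 genes measured in both. For 19 members it was lower in the Ring1B KO and higher in the double KO, and for 7 the reverse. At least 2-fold in opposite directions were 4 members, against 2.70% of all genes.

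**Figure D2:**
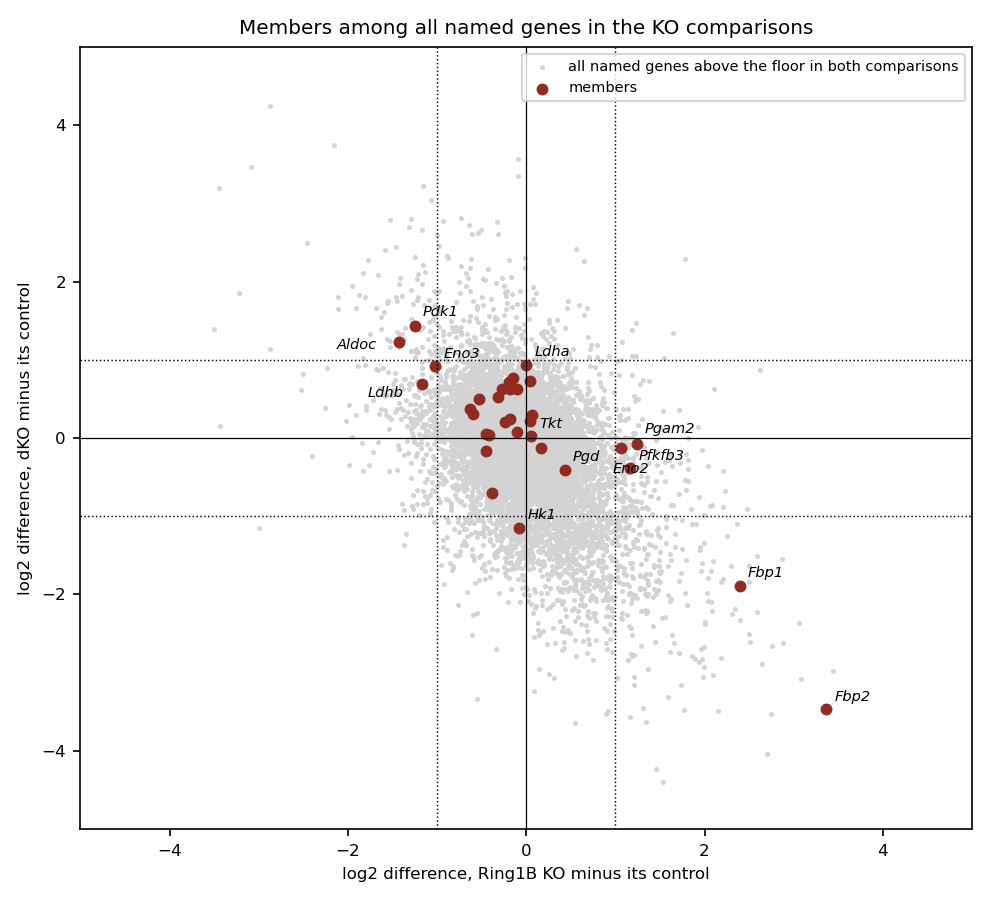
Log2 difference in the Ring1B comparison (horizontal axis) against that in the double KO comparison (vertical axis). Red points are the 33 members measured and grey points all named genes above the floor in both comparisons, and dotted lines mark 2-fold. Fbp1 and Fbp2 lie at the lower right (3.36 and −3.47 for Fbp2) and Pdk1 and Aldoc at the upper left, with most other members between 0 and 1 on the vertical axis.

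Between the control arrays, which are both labelled wild-type, 4 members were at least 2-fold lower on the Ring1B control (Fbp1, Fbp2, Pfkfb3 and Pck2) and 1 was higher (Pcx). The shares over all 12645 genes were 12.2% and 8.15%. The 15 members with several measured probe sets had probe sets of both signs in 5 cases, as many as in each KO comparison, and in 6 cases only some of the probe sets passed 2-fold, against 2 in each KO comparison. The genes of mixed sign were Pfkfb3, Pfkl, Pfkp, Pgk1 and Tkt in the Ring1B comparison and Pfkfb3, Pfkl, Slc2a1, Slc2a3 and Tkt in the double KO comparison. Against the control of the other pair the sign turned for 13 of 33 members in the Ring1B KO and for 8 of 33 in the double KO.

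The pair of fructose bisphosphatases, which carry out the step that separates gluconeogenesis from glycolysis, had the largest differences among the members in both KO comparisons. Fbp2 read 95.7 on the Ring1B control, 984 on the Ring1B KO, 405 on the double KO control and the floor of 36.6 on the double KO array. It was thus 10.3-fold higher in the Ring1B KO and at least 11.1-fold lower in the double KO than on the own control. Fbp1 read 37.8, 198.8, 170.3 and 46.0 in the same order, with 2 arrays close to the floor, which is 5.25-fold higher and 3.70-fold lower. The Ring1B KO and double KO control arrays were high for both genes, and the other 2 arrays low. Against the control of the other pair, Fbp2 kept its directions (1.28 in the Ring1B KO and −1.39 in the double KO), while Fbp1 differed by 0.22 and 0.28, so both Fbp1 differences rest on its own controls. Raising the floor to the 60th percentile left Fbp1 at 0.65 and −0.43. The genes are direct neighbours among the protein-coding genes of chromosome 13 on GRCm38.p6, and each was measured by 1 probe set.

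Markers of primitive endoderm differed in the same directions as Fbp1 and Fbp2. Of 10 primitive endoderm markers, 9 were at least 2-fold higher in the Ring1B KO and none lower, while in the double KO 6 were at least 2-fold lower and 1, Lama1, higher. Their summed signal was 5964 on the Ring1B control, 18629.7 on the Ring1B KO, 6124 on the double KO control and 2564 on the double KO array, and Gata6, which defines that lineage, read 227, 1006, 413 and the floor. The fibroblast list summed to 6855, 10389, 3911 and 1130.3, with 9 of 10 markers at least 2-fold lower in the double KO and none 2-fold apart in the Ring1B KO. Within these sums S100a4 read 2219, 3844, 285 and 108. At any size the fibroblast markers also had the directions of Fbp1 and Fbp2. All 9 measured were higher in the Ring1B KO, with a median of 0.50, and all 10 were lower in the double KO. The part of these cells in the Fbp differences was not tested, and in bulk RNA a change in the number of cells of a type and a change per cell cannot be told apart. Of 10 skeletal muscle markers, 4 were at the floor on all arrays, among them the regulators Myod1, Myog and Myf5, and the list summed to 1180.4, 992, 732 and 698. Of the 5 muscle markers measured in each KO comparison, 1 (Actn3) was at least 2-fold lower in the Ring1B KO, while in the double KO 1 (Actn3, 1.65) was higher and 2 (Des, −1.28, and Myh3, −1.25) lower. Against the Ring1B control the double KO values were −0.55 for Actn3, −0.39 for Des and −0.14 for Myh3. Actn3 in the Ring1B KO was at 0.09 against the double KO control, so these 2-fold differences rest on the own controls. Of 5 liver and kidney markers, 4 were at the floor on all arrays.

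Glucose enters through the transporters encoded by Slc2a1 and Slc2a3, and neither was 2-fold apart in a KO comparison. Slc2a1 read 4803, 3585, 2851 and 2924 on the Ring1B control, Ring1B KO, double KO control and double KO arrays, the order kept for all values below. Slc2a3 read 9171, 8515, 11208 and 11840.1. Their differences in the double KO were 0.04 and 0.08, small enough to turn to −0.09 and −0.05 with the signals as deposited. Slc2a1 was 1.68-fold higher on the Ring1B control than on the double KO control and Slc2a3 1.22-fold lower, but Slc2a1 has no settled sign there, since its other probe sets gave −0.04 and 0.38.

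Hexokinases trap glucose in the cell, and the isoforms parted in the double KO comparison. Hk1, the widespread form, read 549.8, 522, 943 and 426, and Hk2, the inducible form, read 2833, 2497, 2231 and 2651. Hk1 was high on the double KO control alone. It was 2.21-fold lower in the double KO while Hk2 differed by 0.25, a gap of −1.39 between the isoforms. The other Hk1 probe set gave −1.04 in the double KO and −0.55 in the Ring1B KO, where the one used gave −0.08. Against the Ring1B control, Hk1 in the double KO differed by −0.37 and, at the other probe set, by 0.23, so both size and direction rest on the double KO control.

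Phosphofructokinase, the committed step of glycolysis, has liver (Pfkl), muscle (Pfkm) and platelet (Pfkp) subunits, all measured well above the floor. In the Ring1B comparison the subunit genes lay between 0.04 and 0.07 at their brightest probe sets, with a dimmer Pfkp probe set at −0.75 and a dimmer Pfkl one at −0.18. In the double KO all were higher than on the control at their brightest probe sets. Pfkl was the furthest at 0.73 (2052, 2115, 1657 and 2755), with Pfkm at 0.29 and Pfkp at 0.22. The dimmer Pfkl probe set that gave −0.18 above gave −0.16 in the double KO. Against the Ring1B control all the subunit genes were again higher at their brightest probe sets but in another order, Pfkm at 0.97, Pfkp at 0.51 and Pfkl at 0.42. A dimmer Pfkl probe set gave −0.27 there. Pfkm in the Ring1B KO was at −0.61 against the double KO control. The dim regulator gene Pfkfb3, whose product makes the activator of the enzyme, read 40.5, 90.9, 126 and 96.4. It was 2.24-fold higher in the Ring1B KO than on its control, but −0.47 against the other control, and another probe set gave −0.70, so the probe sets of Pfkfb3 go against each other.

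Aldolase cleaves the sugar, and its brain form was further from the control than its common form in both comparisons. Aldoc read 565, 209.8, 324 and 757, which is 2.69-fold lower in the Ring1B KO and 2.34-fold higher in the double KO. Aldoa, measured at 8863, 7109, 7322 and 10524, had the same directions at −0.32 and 0.52. Aldoc was lowest on the Ring1B KO and highest on the double KO array, so its directions were the same against either control, at −0.63 and 0.42 against the control of the other pair. Its other probe set was at the floor on all arrays, so Aldoc rests on 1 probe set. Of 4 neuron markers, 3 were above the floor, of which 2 (Tubb3 and Stmn2) were at least 2-fold higher in the double KO than on its own control and none in the Ring1B KO. The list summed to 3781, 3207, 2314 and 4759.7, most of it from Stmn2, which read 3392, 2882, 2141 and 4438. Against the Ring1B control the double KO values were −0.01 for Tubb3, 0.39 for Stmn2 and −1.34 for Map2. The part of the neuron list in the Aldoc and Eno2 values was not tested.

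Tpi1, Pgk1 and Pgam1, which carry the next steps, were under 2-fold apart from their controls, lower in the Ring1B KO and higher in the double KO. Triose phosphate isomerase (Tpi1) read 5467, 4932, 3355 and 5709, phosphoglycerate kinase (Pgk1) 8726, 7253, 7172 and 11112, and phosphoglycerate mutase (Pgam1) 6381, 5959.5, 4220.1 and 6520.2. In the double KO these genes differed by 0.77, 0.63 and 0.63, and in the Ring1B KO by −0.15, −0.27 and −0.10. Against the Ring1B control the double KO values of Tpi1 and Pgam1 were 0.06 and 0.03, and that of Pgk1 0.35. The other Tpi1 probe sets gave −0.48 and 0.15 there. Against the double KO control the Ring1B KO values turned to 0.56 for Tpi1, 0.50 for Pgam1 and 0.02 for Pgk1. The Pgk1 value against the Ring1B control holds at its brightest probe set alone: the others read 10184 and 3004 on the Ring1B control and 6746 and 1174 on the double KO array. Of the 3 Pgk1 probe sets, 1 gave 0.40 in the Ring1B KO and the others −0.28 and −0.27.

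The muscle mutase Pgam2 and the enolases had differences of both signs in the Ring1B KO. Pgam2, dim on all arrays, read 98.2, 232, 76.2 and 72.4 and was 2.36-fold higher in the Ring1B KO, 1.34 away from Pgam1 on the log2 scale, and it was 3.04-fold higher there than on the double KO control too. Eno2, the neuronal enolase gene, read 65.3, 137, 80.8 and 74.1 and was 2.09-fold higher in the Ring1B KO. Eno3, the muscle enolase gene, read 476, 234.5, 262.5 and 496 and was 2.03-fold lower there and 1.89-fold higher in the double KO. The enolase isoforms thus lay 2.08 apart in the Ring1B comparison and −1.04 apart in the double KO, the widest split within a step in the Ring1B comparison. Against the other control array, Eno2 and Eno3 in the Ring1B KO differed by 0.76 and −0.16. With the raised floor the Eno2 value was 0.11 and that of Pgam2 0.87, so both fell short of 2-fold.

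Pyruvate kinase and lactate dehydrogenase close the path. Pkm read 8404, 7416, 9064 and 14040.0, a difference of −0.18 in the Ring1B KO and 0.63 in the double KO. Ldha, which favours lactate, read 8501, 8496, 6373 and 12217, a difference of −0.00085 in the Ring1B KO, whose sign turned with quantile normalization (0.12), and was 1.92-fold higher in the double KO. Ldhb, which favours pyruvate, read 2289, 1018, 2347 and 3778. It was 2.25-fold lower in the Ring1B KO, where it was also the lowest of the arrays, and 1.61-fold higher in the double KO. The Ldhb difference in the Ring1B KO was alike against the other control (−1.21), and all 4 Ldhb probe sets were at least 2-fold lower there, from −1.63 to −1.14. In the double KO 2 of the 4 exceeded 2-fold (1.20 and 1.24). Of the lactate and pyruvate carriers, Slc16a1 read 3508, 3072, 2792 and 4586. It was 1.64-fold and Slc16a3 1.42-fold higher in the double KO, and they differed by −0.19 and −0.52 in the Ring1B KO.

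**Figure D3:**
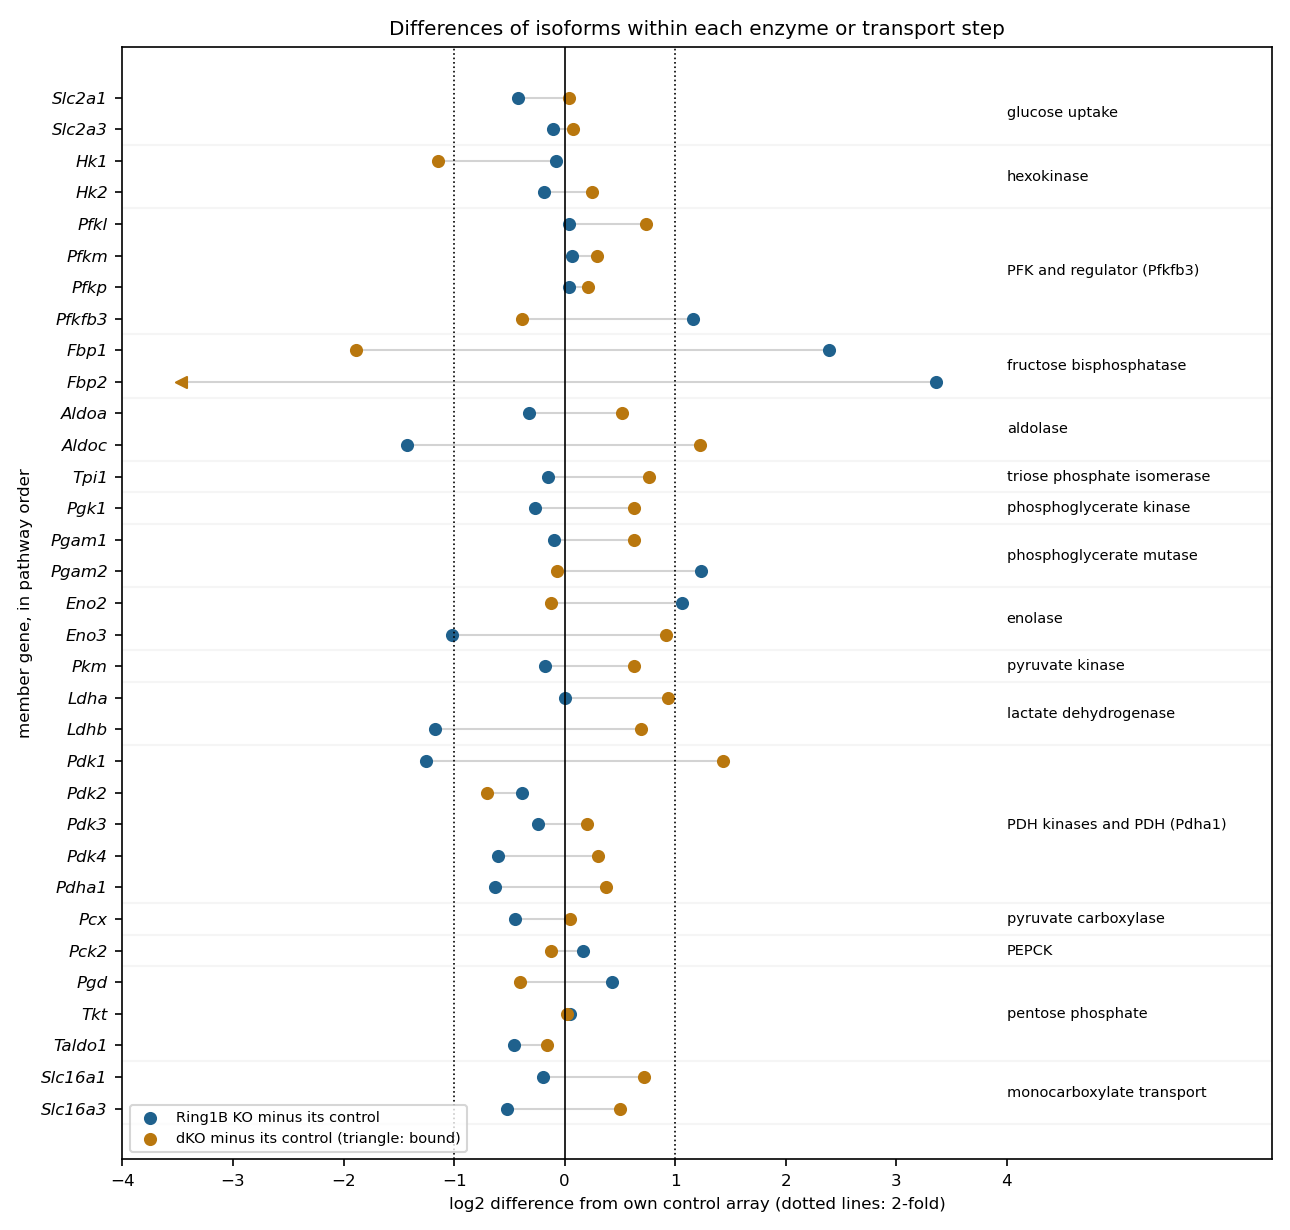
Log2 difference from the own control (horizontal axis) of each measured member, in pathway order (vertical axis), with the step named at the right. Blue points are the Ring1B comparison and brown points the double KO comparison, a grey line joins both values of a gene, the triangle is a bound, and dotted lines mark 2-fold. Isoforms part most in the enolases (Eno2 1.06 and Eno3 −1.02, Ring1B comparison) and the PDH kinases (Pdk1 1.43 and Pdk2 −0.70, double KO comparison).

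Pdk1 stood apart from the other kinases of pyruvate dehydrogenase. It read 1860.1, 781, 1325 and 3573, which is 2.38-fold lower in the Ring1B KO and 2.70-fold higher in the double KO. The 4 Pdk1 probe sets had 1 direction in each comparison with the own control, from −1.47 to −0.85 and from 0.56 to 1.43. Against the control of the other pair the brightest probe set kept its directions (−0.76 and 0.94) but others did not. One of these read 2992, 1660.2, 371 and 897, and another 785, 309, 205 and 302, so that the Ring1B pair was the higher at both. The order of Pdk1 across the pairs therefore depends on the probe set, and its differences from its own controls do not change sign with it. The dimmer Pdk2, Pdk3 and Pdk4 lay between −0.60 and −0.24 in the Ring1B KO and at −0.70, 0.20 and 0.31 in the double KO. Pdha1, the subunit that the kinases act on, read 4322, 2793, 3684 and 4768 and shared the directions of Pdk1, at −0.63 and 0.37.

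Of the enzymes that feed gluconeogenesis, neither Pcx nor Pck2 was 2-fold apart in a KO comparison. Pyruvate carboxylase (Pcx) read 195, 143, 92.7 and 96.2. Mitochondrial PEP carboxykinase (Pck2) read 969.6, 1089, 2533 and 2324. Both separated the pairs of arrays, Pcx 2.10-fold higher and Pck2 2.61-fold lower on the Ring1B control than on the double KO control, and differed by −0.45 and 0.17 in the Ring1B KO and by 0.05 and −0.12 in the double KO. Against the control of the other pair these became 0.63 and −1.22 in the Ring1B KO and −1.02 and 1.26 in the double KO, all of opposite sign.

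None of the 3 pentose phosphate genes measured was 2-fold apart in a KO comparison. Pgd, which makes NADPH in the oxidative arm, read 2791, 3762, 3181 and 2406, a difference of 0.43 in the Ring1B KO and −0.40 in the double KO, with the same direction at all 4 probe sets in each comparison. The transketolase gene Tkt read 8165, 8462, 8917 and 9066, differences of 0.05 and 0.02 (−0.10 with the signals as deposited), and the transaldolase gene Taldo1 differed by −0.46 and −0.16. The array with the highest Pgd signal was that of the Ring1B KO and the one with the lowest that of the double KO, the reverse of Aldoc.

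Of the 20 members with a mean signal of at least 788, a class chosen after the values were seen, 17 had a higher signal in the double KO than on its control, with a median of 0.45, from −0.40 (Pgd) to 1.43 (Pdk1). Among all 3271 genes as bright, 60.2% were higher, with a median of 0.08. With the signals as deposited, or quantile normalization, 14 of the 20 were higher. In the Ring1B KO 6 of the 20 were higher (47.0%). Against the Ring1B control, 17 of the 20 were higher on the double KO array (62.1% of genes as bright), with a median of 0.36, and 15 were higher than on both control arrays. These comparisons share the double KO array, and the brightest probe sets of Pgk1 and Pdk1 counted here differ from others of those genes, as above. On the double KO array a dimmer probe set was also below the Ring1B control for Tpi1 (−0.48), Aldoa (−0.99), Pdha1 (−0.09) and Pfkl (−0.27). On that array 20 of the 33 members had their highest signal of the 4 arrays (60.6%, against 26.4% of all genes), while the Ring1B KO array held the lowest signal of 12 members (36.4%, against 28.4%). These shares of all genes are not matched for brightness. Of dim genes, 39.9% were higher in the double KO than on its control, against the 60.2% of bright ones. The ES cell markers were higher in the double KO than on its own control, 9 of 9 with a median of 0.73. Against the Ring1B control 5 of 9 were higher, with a median of 0.16. In the Ring1B KO 8 of 9 were lower than on its own control, with a median of −0.30, and 4 of 9 lower than on the double KO control, with a median of 0.18. The part of the ES cell markers in the glycolytic differences was not tested.

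**Figure D4:**
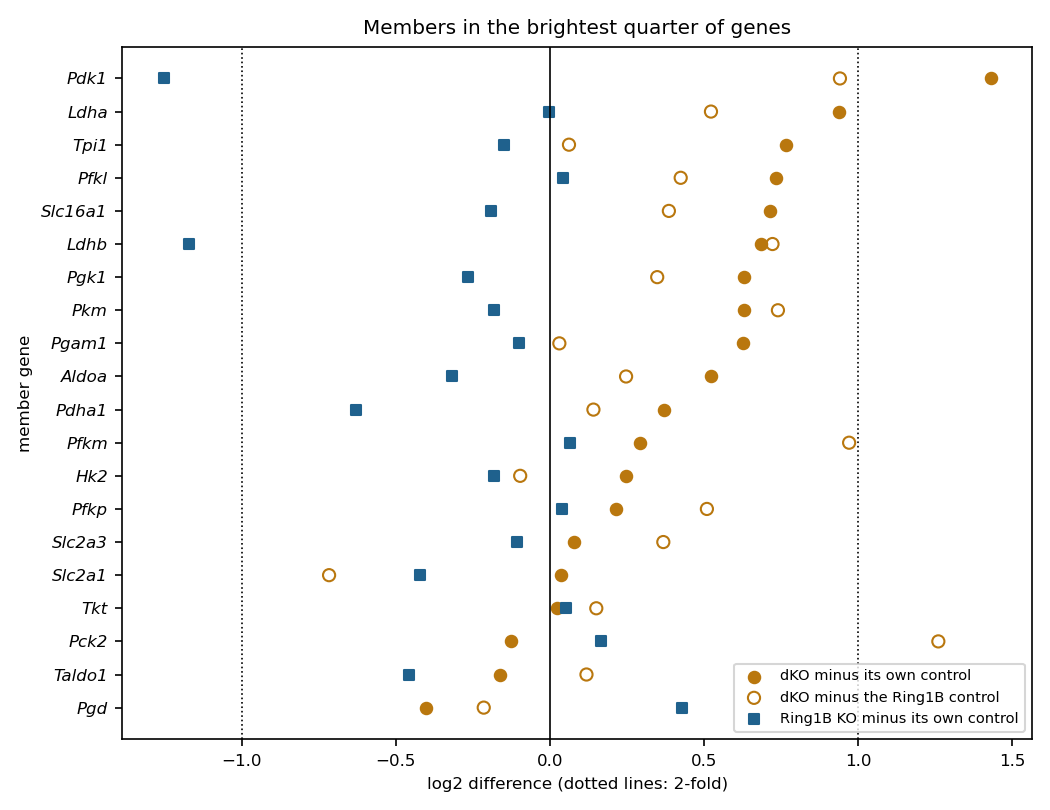
Log2 differences (horizontal axis) of the 20 members with a mean signal of at least 788 (vertical axis). Filled circles are the double KO array minus its own control, open circles the double KO array minus the Ring1B control, and squares the Ring1B KO array minus its own control. Filled circles lie right of 0 for 17 genes, and the open circles of Tpi1 and Pgam1 lie close to 0 (0.06 and 0.03).

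Other genes of central carbon metabolism, from a second list of 49, were mostly under 2-fold apart, as were most genes on the array. Of 35 measured in the Ring1B comparison 1 was at least 2-fold higher and none lower (2.86%, against 6.15% of all genes either way). Of 33 in the double KO comparison 1 was higher and 1 lower (6.06%, against 13.0% of all genes). The higher gene in the Ring1B KO was Hkdc1, a hexokinase-like gene (74.4 to 197, 2.65-fold). In the double KO, Emb, a partner of the monocarboxylate carriers, was 2.44-fold higher (2252 to 5498) and Pdp2, a phosphatase that reactivates pyruvate dehydrogenase, 2.06-fold lower. Pdp2 read 72.6, 71.4, 149 and 72.2, high on the double KO control alone. The double KO differed from the Ring1B control by −0.008 for Pdp2 and by 0.81 for Emb. None of 21 genes of the tricarboxylic acid cycle was 2-fold apart in either comparison, with medians of −0.09 and −0.11.

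Most genes of the HIF response were under 2-fold apart, as were most genes on the array. At least 2-fold apart were 11.1% of those measured in each KO comparison. The shares of all genes measured were 6.15% in the Ring1B comparison and 13.0% in the double KO comparison. Of 18 measured, 1 was at least 2-fold higher in the Ring1B KO (P4ha2, a collagen hydroxylase gene, 3.97-fold, 281 to 1116) and 1 lower (Bnip3, a mitophagy gene, 2.83-fold, 1715 to 606). In the double KO, P4ha2 was 2.53-fold and the HIF subunit gene Epas1 2.04-fold lower, and none was 2-fold higher. Epas1 read 1369, 1759, 3031 and 1483, highest on the double KO control. Against the Ring1B control, Epas1 in the double KO was at 0.12 and P4ha2 at −0.79. Hif1a differed by 0.06 in the Ring1B KO and 0.24 in the double KO from the own controls. It read 2972, 3101, 1005 and 1187, so it was 2.96-fold higher on the Ring1B control than on the double KO control. The double KO was at −1.32 for Hif1a against the Ring1B control. Among 14 regulators of metabolism, Mycn, which encodes N-Myc, read 2637, 1261, 1711 and 3596 and was 2.09-fold lower in the Ring1B KO and 2.10-fold higher in the double KO. Txnip, an inhibitor of glucose uptake, was 2.60-fold lower in the Ring1B KO, and Mlxipl and Esrra were 3.51-fold and 3.06-fold lower in the double KO. Mlxipl read 65.4, 64.0, 176 and 50.0, highest on the double KO control. The double KO differed from the Ring1B control by −0.39 for Mlxipl and by −1.90 for Esrra.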

How the data were processed

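Signal intensities of 45101 probe sets on 4 arrays were deposited, computed by the authors with MAS5 on a linear scale, per the submitters' processing notes. Version and settings are not given in the sources used here. The number of arrays, 1 a group, limits the precision. Each array was multiplied to bring its 2%-trimmed mean to 277, then signals were floored at 36.6, the 40th percentile of scaled signals of the 34958 probe sets with 1 gene symbol, and log2-transformed (Python 3.11.15, pandas 2.3.3). A floor shrinks the differences of dim genes, and a difference from an array at the floor is a bound. Gene symbols came from GEO's platform table. Of all probe sets, 932 had several symbols and 9211 none. RefSeq identifiers matched 34754 and changed 0 symbols. The 64 control probe sets were left out of gene values. A gene is its probe set with the highest mean log2 signal. Genes past 2-fold were counted. All 37 members are accounted for, values are printed for those at least 2-fold apart and for the brightest of a step, and second-list genes are named when 2-fold apart in a KO comparison, up to 3 a direction. Hif1a, Gata6, Lama1 and the marker genes were named after their values were seen. Members and lists were chosen with earlier results of these data known. The steps were tested on simulated data. Other scalings, floors, probe set rules and the other control array were tried.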

Additional observations from a re-analysis of the deposited data

Results flagged for a closer look

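Fbp2, Fbp1, Pdk1 and Aldoc are listed because each was at least 2-fold apart from its control in both KO comparisons and in opposite directions. The double KO difference minus the Ring1B difference was −6.83 for Fbp2 (a bound, since the double KO array was at the floor), −4.28 for Fbp1, 2.68 for Pdk1 and 2.65 for Aldoc, on the log2 scale. With 1 array a group the difference between the comparisons was not tested.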

How the results depend on the processing

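Every value rests on 1 array a group, so none has an error. Changing the scaling, the floor or the probe set rule left the number of members at least 2-fold apart within 1.5 times of the reported one except as follows. In the Ring1B comparison the 5 higher members became 1 with the floor at the 60th percentile and 2 against the double KO control, and the 4 lower ones became 2 against that control and 2 without the _s_at, _x_at and _a_at probe sets, which left 24 of 34 members. In the double KO comparison the 2 higher members became 4 with a common median, 1 with the mean over probe sets and 1 without those probe sets, and the 17 bright members higher became 10 without them (of 13 left). Between the controls, the signals as deposited gave 27 higher and 0 lower members and a median of 1.86. The 1 higher member became 0 with the floor raised, 3 with the mean over probe sets and 0 without those probe sets, and the 4 lower became 2 with the floor raised. The cause was not tested.

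Among results at least 2-fold apart in either setting, signs turned against the other control array for Pfkfb3 (−0.47), Pck2 (−1.22) and Hk1 minus Hk2 (−1.02) in the Ring1B KO, and for Pfkfb3 (1.25), Fbp1 (0.28), Pcx (−1.02), Pck2 (1.26) and Eno2 minus Eno3 (0.12) in the double KO. At any size, 13 members turned in the Ring1B KO and 8 in the double KO. Between the controls 12 members turned with the signals as deposited: Hk1 (0.86), Pfkm (0.96), Slc2a3 (1.35), Pfkp (1.35), Pfkfb3 (0.0020), Eno2 (1.33), Pkm (1.53), Ldhb (1.60), Pck2 (0.25), Pgd (1.45), Tkt (1.51) and Taldo1 (1.36). The sign also turned for Fbp1 minus Fbp2 (1.25) with the raised floor. Scaling moved the median of all genes in the double KO from −0.05 to 0.06 with a common median and to −0.15 as deposited. No paired analysis was possible because each group is 1 array. Signals near the floor limit what can be said of Fbp1, Pfkfb3, Pgam2, Eno2 and Pdk2.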
